A study of Mus musculus with 6 samples.

Results

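Histone genes were described here in regulatory T cells (Tregs) sorted from mouse colon tumours. The genes were chosen by symbol, as those of the clustered core and linker histones and of the H1f, H2af and H3f variants, and 59 of the 19494 genes on the array fitted. Of these, 51 were replication-dependent genes, 3 were replacement variants and 5 were germ cell variants. A further 14 histone genes, among them those of the H2A.Z and macroH2A variants, fitted only by an older symbol and are given apart.

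All mice were double reporters (Foxp3-RFP x GPR15-GFP), in which red fluorescence reads out Foxp3, the defining factor of Tregs, and green fluorescence reads out the colon homing receptor GPR15. Colorectal cancer had been induced in all of them with the carcinogen azoxymethane (AOM) and the colitis agent dextran sulfate sodium (DSS). CD4-stained, red cells of the tumorous colonic lamina propria were sorted into GPR15-GFP- cells (titles GPR15M, 3 samples) and GPR15-GFP+ cells (titles GPR15P, 3 samples), and both fractions carried the numbers 1, 5 and 6. The comparison asked how tumour-associated Tregs with and without GPR15 differ. The labels give no age or sex of the mice, no site of the reporter within Gpr15, and no word on whether a number is 1 mouse or a pool, and a p-value therefore covers only how these samples vary.

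Histones are the proteins that DNA is wound around, with H2A, H2B, H3 and H4 in the nucleosome core and H1 on the linker. Replication-dependent histone genes lie in clusters, are transcribed in S phase, and give mRNAs that end in a stem-loop in place of a poly(A) tail. Replacement variants such as H3.3 are made throughout the cell cycle from polyadenylated mRNAs and enter chromatin without DNA replication. The labels name polyA RNA as the molecule and total RNA in the extraction, and how well the labelling kit took up RNA without a tail was not tested.

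Values are log2 probe set levels after RMA, and the number of arrays limits their precision. Array medians lay between 6.49 and 6.64. The spread of values over each array was narrower in both samples numbered 1 (SD 1.63) than in the other 4 (SD 1.74 to 1.87). Of 10 Treg markers, 9 were measured, and Cd3e, Cd3d, Cd4, Ctla4, Icos, Tigit, Ikzf2 and Tnfrsf18 had fraction means of 9.30 to 11.9, while Il2ra had 5.28 and 5.06. Foxp3 was not analysed here. The Gpr15 row went against the titles, at 8.78 ± 0.31 (SD, n = 3) in samples labelled GPR15M and 8.12 ± 0.23 (SD, n = 3) in samples labelled GPR15P. The fractions did not overlap there, the adjusted p was 0.773 in limma, and every direction below rests on the labels. In bulk samples, fewer cells of a type and less RNA per cell cannot be told apart. Over markers of other cells, median differences were -0.16 for 6 macrophage genes, -0.48 for 4 B and plasma cell genes, -0.10 for 7 epithelial genes, -0.054 for 4 stromal genes and -0.10 for 4 CD8 and NK cell genes, beside -0.063 over all genes. The stromal median was 0.015 to 0.080 under 3 other scalings (centring of the arrays, quantile normalization and removal of the trend with intensity), those of macrophage and epithelial genes were -0.020 and -0.022 with the intensity trend removed, and the epithelial one was -0.41 without both samples numbered 1. The macrophage median was -0.30 without both samples numbered 1. When limma weighted the arrays, 3 of 7 epithelial genes (42.9%) and 2 of 6 macrophage genes (33.3%) had an adjusted p under 0.05. So had 1 of 4 B and plasma cell genes (25.0%), where 11.2% of all genes had. Those that passed were all lower in samples labelled GPR15P. Of the stromal and the CD8 and NK cell genes, 0 passed. The part of these cells in the histone values was not tested.

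Between the fractions, no histone gene was called. Differences are samples labelled GPR15P minus samples labelled GPR15M, tested with limma and adjusted by Benjamini-Hochberg over all genes. Of the 59 histone genes, 0 passed at an adjusted p under 0.05, where 0.0% of all 19494 genes did, and the lowest adjusted p of a histone gene was 0.773. At an unadjusted p under 0.05, 0 of the 59 passed, where 6.23% of all genes did. With the number as a block, 0 passed after adjustment (0.0% of all genes), and only H2bc4 had an unadjusted p under 0.05, where 12.4% of all genes did. Differences ran from -0.43 for H1f8 to 0.38 for H2bc4, with 31 above 0 and 28 below. In 46 of the 59 the difference was no larger than its standard error. The 95% interval lay within 1 log2 unit of 0 for 55 of the 59, the other 4 being H2bc4, H2bc18, H3f3a and H1f8.

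**Figure D1:**
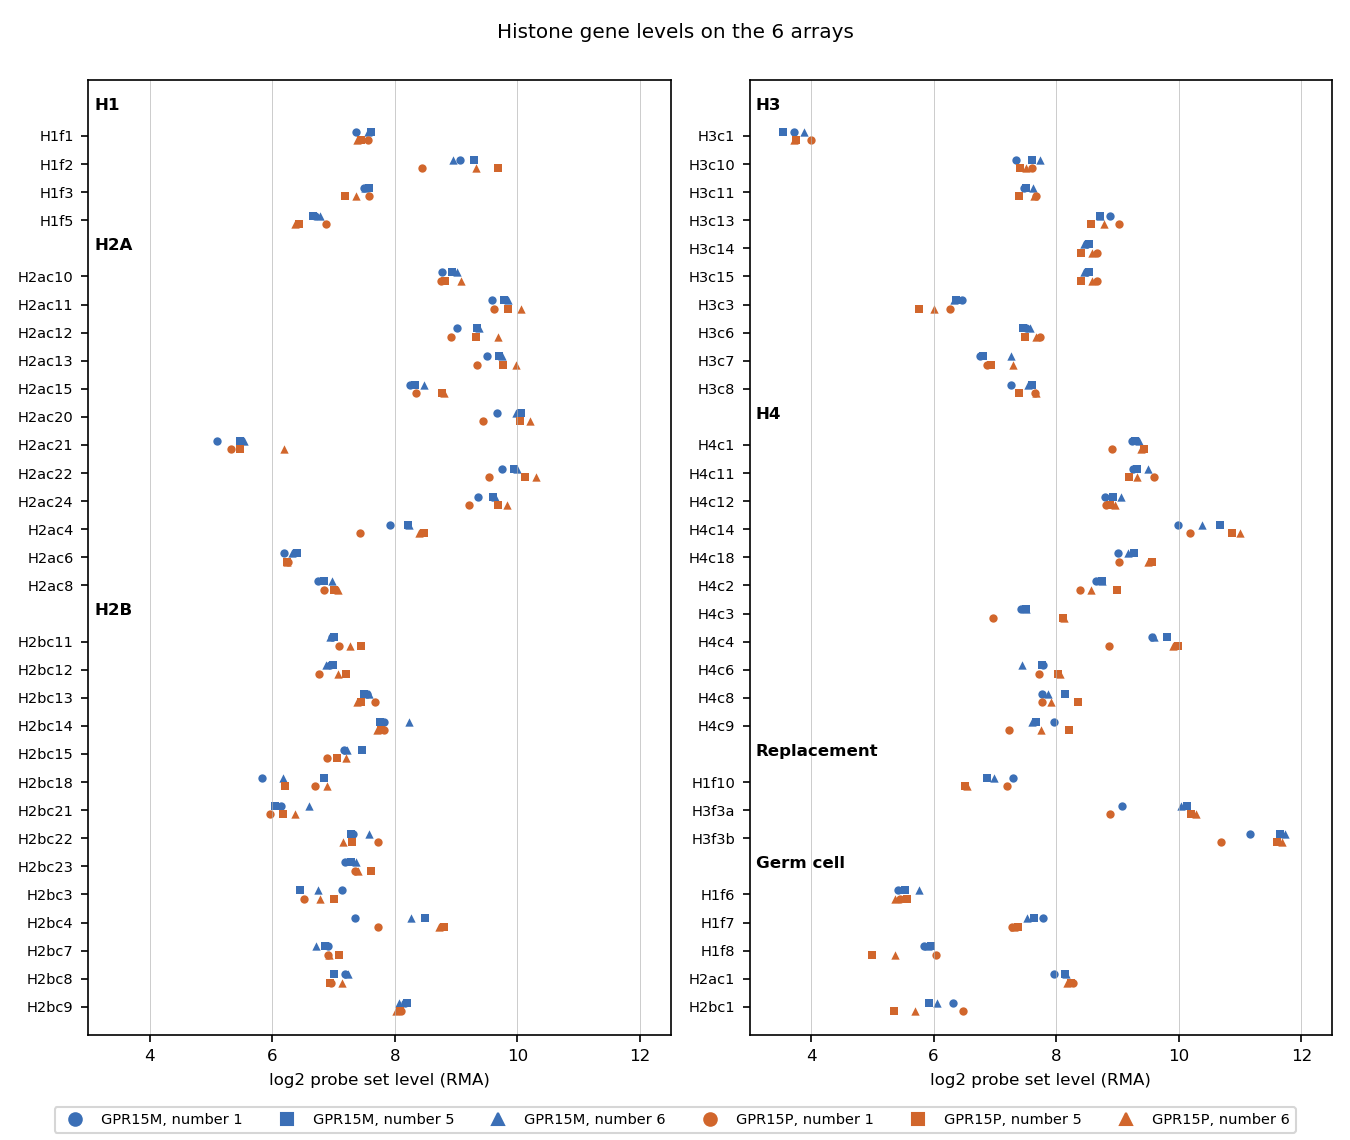
Log2 probe set level of each of the 59 histone genes on each of the 6 arrays, by histone type and class. Colour gives the fraction and marker shape the number in the title. Most genes show overlapping fractions, and for many H2A and H4 genes, H3f3a and H3f3b both circles (number 1) lie left of the other points.

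**Figure D2:**
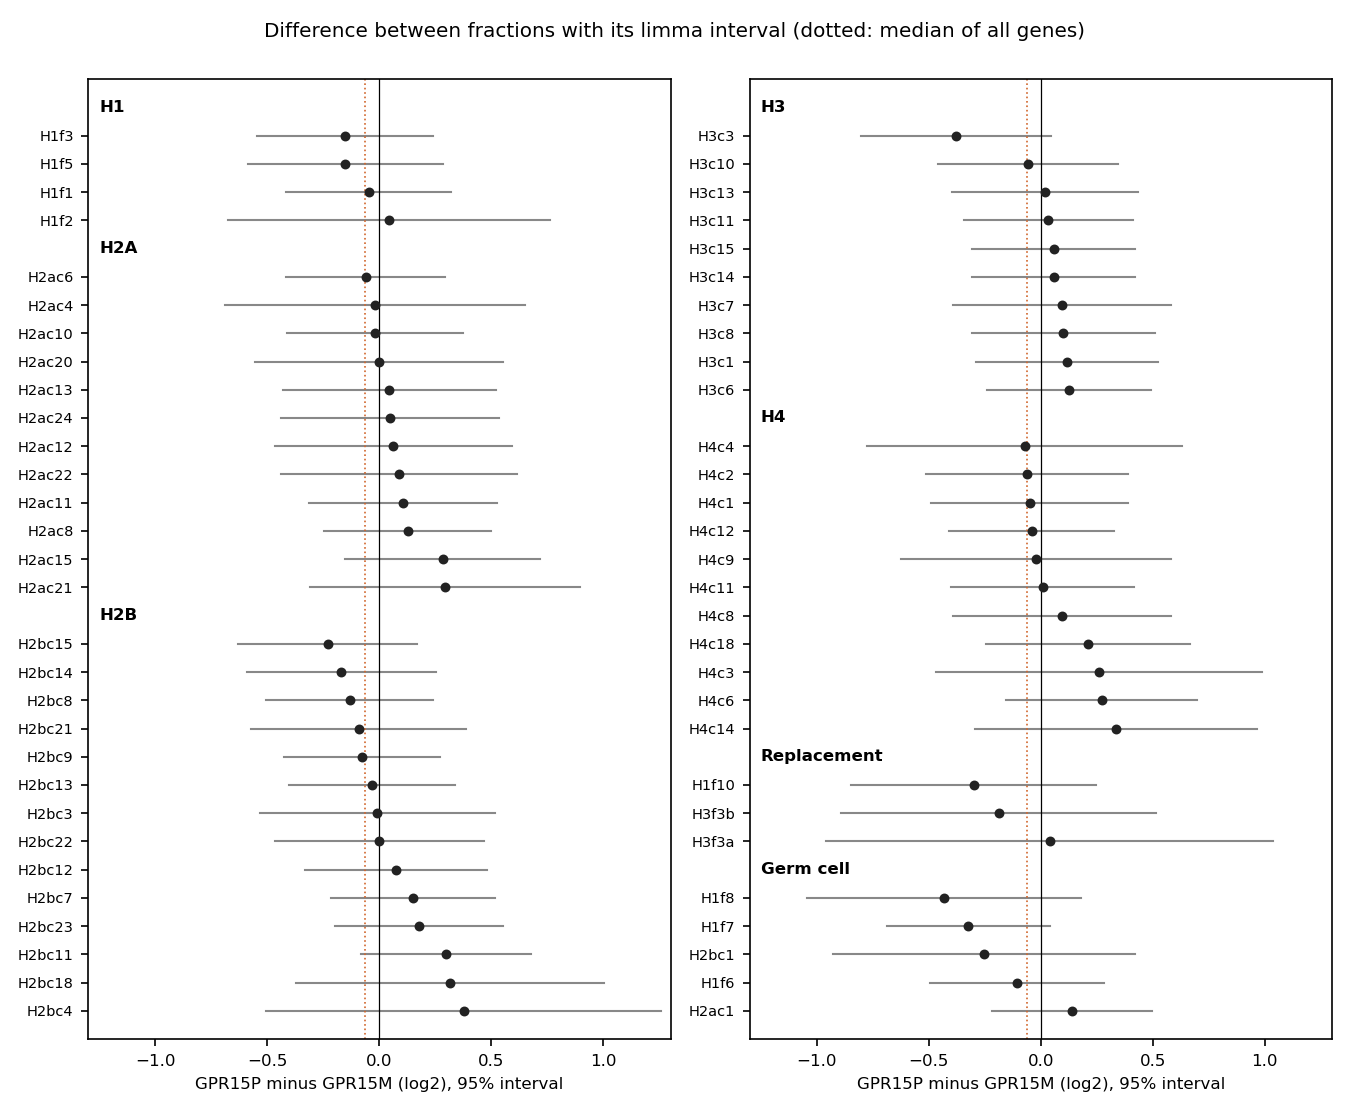
Difference between the fractions (GPR15P minus GPR15M, log2) of each histone gene, with bars for limma's 95% interval and a dotted line at the median of all genes. Every bar spans 0, and differences run from -0.43 to 0.38.

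The groups did not overlap for 5 of the 59 histone genes, a share of 8.47%, against 13.3% of all genes. H2bc11, H2bc7 and H2ac1 were higher in every sample labelled GPR15P, and H3c3 and H1f7 were lower. All 3 pairs of equal number lay above 0 for 14 histone genes, where 13.4% of all genes did so. All 3 lay below 0 for 7 histone genes, where 23.6% of all genes did so. Over all genes both counts went with signal level. Among the 1809 genes with a mean over the 6 arrays of 9 or more, 465 had all 3 above 0 and 186 all 3 below. Among the 11464 genes with a mean under 7, these were 887 and 3269. Of 12 replication-dependent genes in each band, 3 and 4 had all 3 above 0, and 0 and 1 all 3 below.

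Over the 51 replication-dependent genes, 29 differences lay above 0 and the median was 0.043, beside -0.063 over all genes. Its direction changed with the scaling of the arrays, with a median of 0.11 after centring, -0.036 after quantile normalization and -0.019 after the trend with intensity was removed. The number above 0 was 42, 23 and 25 of 51 under those settings, and 44, 25 and 27 of all 59 histone genes. Within the numbers 1, 5 and 6 the median was 0.029, 0.074 and 0.094, where all genes had -0.027, -0.083 and -0.065. The medians of all genes went with signal level. At a mean over the 6 arrays under 7, 7 to 8, 8 to 9 and 9 or more, they were -0.11, -0.034, 0.081 and 0.074. Replication-dependent genes of these bands had 0.083, -5.3e-05, -0.00025 and 0.045, above all genes at means under 8 and below them at higher means. The 43 genes of the Hist1 cluster had a median of 0.032 and the 8 of the Hist2 cluster one of 0.057. By type, the sign of the median turned under at least 1 of these 3 settings for H2A, H2B, H3 and H4, and was below 0 under all 3 for H1. Probe sets of these genes share sequence, and the rows of H3c14 and H3c15 were identical on all 6 arrays, so the genes are not independent.

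Linker histones of the H1 type pack nucleosomes together. Of the 4 replication-dependent H1 genes, H1f1, H1f3 and H1f5 lay below 0 and H1f2 above, with a median of -0.10. H1f2 stood at 9.07, 9.30 and 8.95 in samples labelled GPR15M with the numbers 1, 5 and 6, and at 8.44, 9.68 and 9.33 in those labelled GPR15P. The sample labelled GPR15P with the number 1 was the lowest of the 6 and the other 2 of its fraction were the highest, so the fractions overlapped and the difference of 0.043 ± 0.31 (SE) hid pair differences of -0.63, 0.38 and 0.38. The other 3 genes turned the other way, as H1f5 shows with 0.18, -0.22 and -0.42. Their differences were -0.049 for H1f1, -0.15 for H1f3 and -0.15 for H1f5, and the signs of H1f1 and H1f2 turned with the scaling.

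H2A forms a dimer with H2B, and the tails of both carry ubiquitin and other marks. Of 12 H2A genes, 8 lay above 0, with a median of 0.055, which was -0.0095 after the intensity trend was removed. H2ac15 stood at 8.25, 8.33 and 8.48 in samples labelled GPR15M and at 8.34, 8.76 and 8.80 in those labelled GPR15P. Its samples numbered 5 and 6 were higher in the GPR15P fraction than any of the other fraction, its sample numbered 1 was not, and the difference was 0.28 ± 0.19 (SE). H2ac21 had a difference of 0.29 ± 0.26 (SE), with pair differences of 0.23, 0.0083 and 0.64. H2ac4, at -0.020, had pair differences of -0.49, 0.25 and 0.17, while H2ac6 had -0.060 and H2ac20 had -0.0018, and these 3 signs turned with the scaling. H2ac11 and H2ac22 differed by 0.11 and 0.087, each by less than its standard error, and the sign of H2ac22 turned after quantile normalization.

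H2B is the partner of H2A in that dimer. Of 14 H2B genes, 6 lay above 0, and the median of -0.0047 turned to 0.062 after the intensity trend was removed. H2bc4 had the largest difference above 0 among the histone genes. It stood at 7.35, 8.50 and 8.26 in samples labelled GPR15M and at 7.72, 8.80 and 8.72 in those labelled GPR15P. Both samples numbered 1 were the lowest of the 6 and the fractions overlapped, yet the GPR15P sample was the higher of every pair, by 0.37, 0.30 and 0.46. The difference was 0.38 ± 0.38 (SE), with an adjusted p of 0.851 in limma and of 0.393 with the block, where its unadjusted p was 0.0411. H2bc11, chosen after its values were seen, stood at 6.98, 7.01 and 6.95 in samples labelled GPR15M and at 7.10, 7.45 and 7.27 in those labelled GPR15P. Its fractions did not overlap, and the difference of 0.30 ± 0.16 (SE) had an adjusted p of 0.773 in limma. H2bc18 turned with the number, at 0.86, -0.64 and 0.72 in the 3 pairs. Below 0, H2bc15 differed by -0.23 ± 0.17 (SE), H2bc14 by -0.17 ± 0.18 (SE) and H2bc9 by -0.080 ± 0.15 (SE).

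H2A and H2B genes often lie head to head, so that a short stretch of DNA serves both as promoter. Among the histone genes, 7 such pairs had promoters in RefSeq (GRCm38.p6), with 163 to 280 bases between the starts. These were picked out after the values were seen, and the files name no build of their own. Differences of the neighbours had the same sign in 2 pairs, H2ac11 with H2bc11 (0.11 and 0.30) and H2ac12 with H2bc12 (0.062 and 0.073). They had opposite signs in the other 5, 1 of them through H2bc22 at -5.3e-05, and the same sign in 4 pairs after centring, 2 after quantile normalization and 3 with the intensity trend removed. The 5 include H2ac15 with H2bc15 (0.28 and -0.23) and H2ac8 with H2bc8 (0.13 and -0.13). In those last 2 pairs, whose signs were kept under the 3 scalings, the H2A gene was above 0 in all 3 numbers and the H2B gene below 0 in all 3, though none passed the test.

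**Figure D3:**
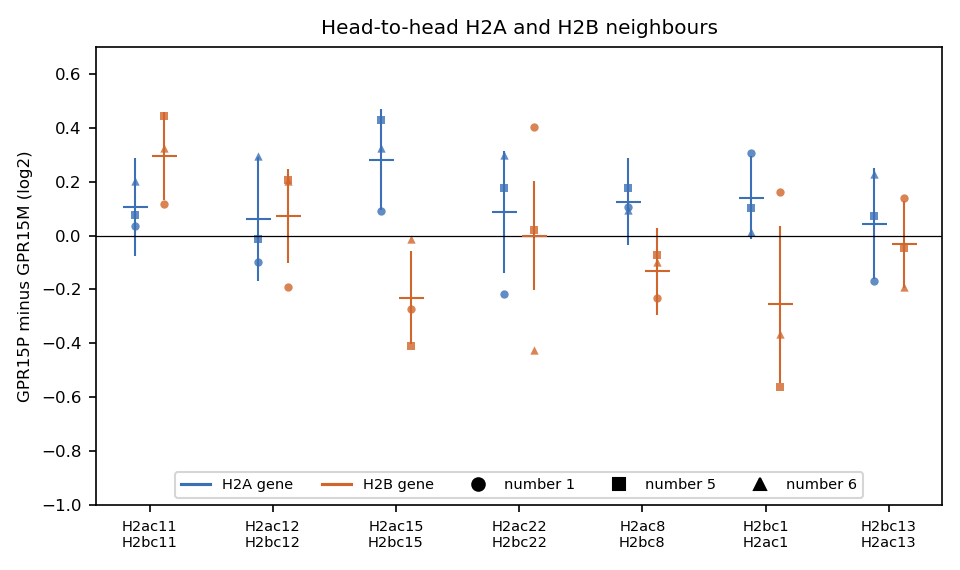
Difference between the fractions (GPR15P minus GPR15M, log2) of the H2A gene (blue) and the H2B gene (orange) of 7 head-to-head pairs. Horizontal lines give limma's difference, vertical lines its standard error on either side, and points the 3 numbers. H2ac15 and H2bc15 lie on opposite sides of 0 in all 3 numbers.

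The DNA between the starts is printed for 3 of these pairs, as the stretch that neighbours of like and of opposite sign share, and the 250 bases before the start for 3 genes described below. The stretches are RefSeq's, GRCm38.p6, read 5′ to 3′ on the strand of the named gene: H2bc11 at chr13:22042950-22043197 (+), H2bc15 at chr13:21753913-21754075 (+), H2bc8 at chr13:23571221-23571399 (+), H4c3 at chr13:23698459-23698708 (-), H3c3 at chr13:23745522-23745771 (-) and H3f3b at chr11:116024505-116024754 (-). Capitals mark CCAAT, the octamer ATTTGCAT and the TATA box TATAAA, each on either strand.
H2bc11: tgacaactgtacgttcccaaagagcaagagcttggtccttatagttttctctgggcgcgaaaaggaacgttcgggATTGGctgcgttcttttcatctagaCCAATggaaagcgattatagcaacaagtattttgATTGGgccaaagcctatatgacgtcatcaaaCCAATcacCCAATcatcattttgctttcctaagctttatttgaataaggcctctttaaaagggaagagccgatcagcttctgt
H2bc15: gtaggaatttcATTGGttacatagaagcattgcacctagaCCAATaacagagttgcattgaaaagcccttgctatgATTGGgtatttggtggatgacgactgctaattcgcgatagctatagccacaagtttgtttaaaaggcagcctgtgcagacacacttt
H2bc8: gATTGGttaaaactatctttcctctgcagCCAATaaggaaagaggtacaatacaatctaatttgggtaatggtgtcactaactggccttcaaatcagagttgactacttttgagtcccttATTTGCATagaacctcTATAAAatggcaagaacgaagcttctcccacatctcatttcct
H4c3: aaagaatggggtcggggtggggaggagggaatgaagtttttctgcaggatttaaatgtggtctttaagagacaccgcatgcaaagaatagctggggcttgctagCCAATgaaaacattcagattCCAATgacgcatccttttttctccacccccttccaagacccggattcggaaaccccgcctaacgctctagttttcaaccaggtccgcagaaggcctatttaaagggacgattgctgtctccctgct
H3c3: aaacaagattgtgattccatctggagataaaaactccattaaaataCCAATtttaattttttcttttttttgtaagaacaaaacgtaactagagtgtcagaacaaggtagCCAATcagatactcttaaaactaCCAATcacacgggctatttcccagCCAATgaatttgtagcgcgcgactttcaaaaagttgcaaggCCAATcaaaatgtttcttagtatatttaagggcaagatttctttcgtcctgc
H3f3b: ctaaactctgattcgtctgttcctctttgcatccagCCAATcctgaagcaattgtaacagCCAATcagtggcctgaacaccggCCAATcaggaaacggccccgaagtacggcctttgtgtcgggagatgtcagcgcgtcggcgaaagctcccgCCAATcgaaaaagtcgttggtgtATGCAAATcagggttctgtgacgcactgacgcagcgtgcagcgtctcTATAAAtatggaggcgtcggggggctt

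CCAAT occurred 5 times in the H2bc11 stretch, 3 times in that of H2bc15 and 2 times in that of H2bc8, which alone of these 3 also held the octamer and the TATA box. Promoters matched 54 of the 59 histone genes, and the motifs were searched in the 250 bases before each start. CCAAT lay in 37 of 46 replication-dependent promoters (80.4%), against 34.2% of 27025 RefSeq promoters. It was in 12 of 12 H2A and 12 of 12 H2B promoters, 4 of 4 of H1, 6 of 8 of H3 and 3 of 10 of H4. The octamer lay in 21.7% of the replication-dependent promoters against 1.59% of all, in 5 of 12 H2A and 5 of 12 H2B promoters and in 0 of H1, H3 and H4. TATAAA lay in 47.8% against 12.9%. The searched 250 bases ran past the start of a neighbour that lay closer. The TATAAA counted for H2bc15 lay there, outside its printed stretch. Neighbours share most of these bases, so the counts are not independent, and a match is a description of letters only.

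H3 carries many of the lysines whose methylation and acetylation mark active and silent chromatin. Of 10 replication-dependent H3 genes, 8 lay above 0, with a median of 0.057, where the median standard error was 0.17, and 2 of the 8 were the identical rows. That median was -0.013 after quantile normalization. H3c3, which with H3c10 lay below 0, had the lowest unadjusted p among the histone genes, 0.0729 in limma. It stood at 6.47, 6.37 and 6.34 in samples labelled GPR15M and at 6.27, 5.76 and 6.00 in those labelled GPR15P. Every sample labelled GPR15P was below every sample of the other fraction, and the difference was -0.38 ± 0.18 (SE), with an adjusted p of 0.773. H3c10 differed by -0.057, a sign that turned after centring, and of those above 0, H3c6 differed by 0.12 ± 0.16 (SE), H3c1 by 0.12 ± 0.18 (SE), H3c14 and H3c15 by 0.057 and H3c13 by 0.018. H3c13, H3c14 and H3c15 lay below 0 after quantile normalization and after the intensity trend was removed. H3c1 had fraction means of 3.72 and 3.83, the lowest of the histone genes, where the lowest values on the arrays were 2.85 to 3.06.

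The H4 genes encode the most uniform of the core histones. Of 11 genes, 6 lay above 0, with a median of 0.0079 that turned to -0.10 after quantile normalization and -0.035 after the intensity trend was removed. H4c14 stood at 9.98, 10.67 and 10.38 in samples labelled GPR15M and at 10.19, 10.86 and 10.99 in those labelled GPR15P. It was higher in the GPR15P sample of every pair while the fractions overlapped, and its difference was 0.34 ± 0.27 (SE). H4c3, chosen after its values were seen, stood at 7.42, 7.50 and 7.51 in samples labelled GPR15M and at 6.96, 8.12 and 8.12 in those labelled GPR15P. Its samples of the GPR15M fraction lay close together, while the sample labelled GPR15P with the number 1 was the lowest and the other 2 the highest of the 6. The difference of 0.26 ± 0.31 (SE) became 0.64 ± 0.15 (SE) without the sample labelled GPR15P with the number 1, at an adjusted p of 0.149 in limma. The pair numbered 1 was also the lowest for H4c4, with -0.70, 0.17 and 0.31 around a difference of -0.071, and for H4c6, with -0.068, 0.25 and 0.63 around 0.27. H4c2 differed by -0.060 and H4c11 by 0.0079, and the sign of both turned with the scaling.

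**Figure D4:**
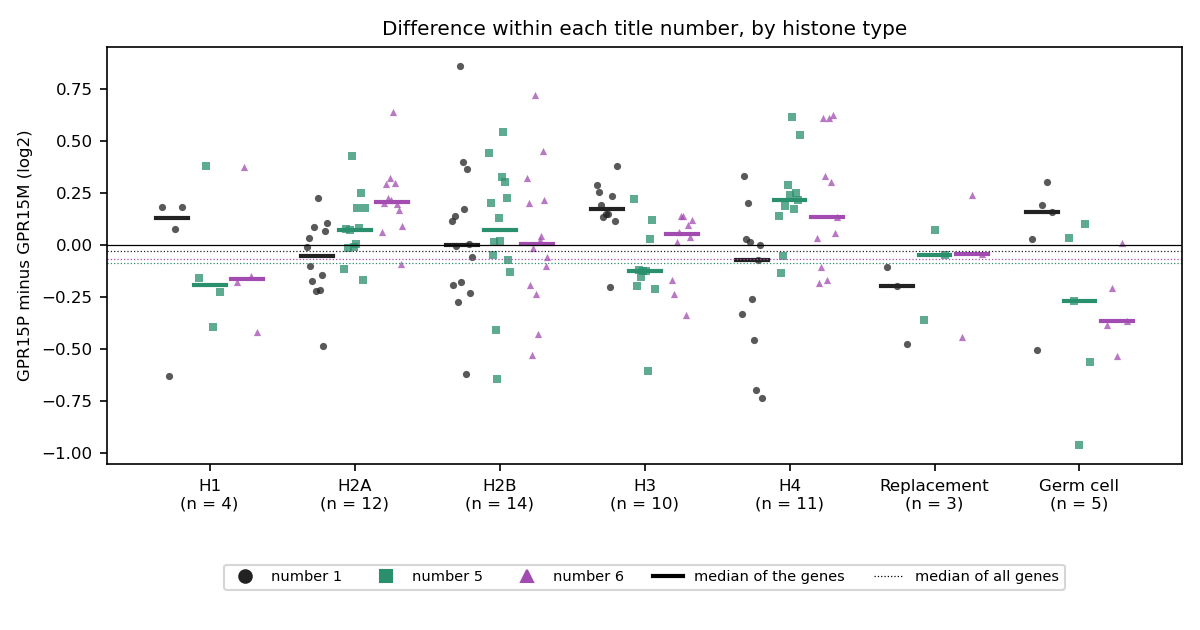
Difference between the fractions within each number (GPR15P minus GPR15M, log2), 1 point per gene and number, with bars at the median of the genes and dotted lines at the medians of all genes. In H4 the medians of the numbers 1, 5 and 6 are -0.068, 0.22 and 0.14.

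A pair numbered 1 below 0 with both others above 0 was seen for 13 of the 59 histone genes (22.03%), 5 of them H4 genes and 4 H2A genes, and for 13.5% of all genes. The reverse was seen for 10 of the 59, 3 of them the H1 genes H1f1, H1f3 and H1f5, and for 18.8% of all genes. Both patterns went with signal level. Among all genes, the first held for 32.8% at a mean over the 6 arrays of 9 or more, and for 7.24% at a mean under 7. The reverse held for 6.41% and 22.5%. Of 12 replication-dependent genes in each band, the first was seen for 6 and 2. When limma weighted the arrays, H4c3 (0.60, adjusted p 0.0403) and H1f8 (-0.56, adjusted p 0.0402) passed, which is 2 of 59 histone genes where 11.2% of all genes passed. The other settings run on the histone genes called 0.

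For most histone genes, as for most genes on the array, the gap between the samples numbered 1 and the rest exceeded that between fractions. No other split of the numbers was measured. In 42 of the 59 histone genes (71.2%), the mean of the samples numbered 1 and that of the other 4 differed by more than the fractions did, against 63.6% of all genes. Among all genes with a mean over the 6 arrays of 9 or more, the share was 74.7%. Both samples numbered 1 were below the other 4 for 19 histone genes (32.2%), against 15.8% of all genes, and above them for 3 (5.08%), against 20.7%. Those below were 9 of 12 H2A genes, 7 of 11 H4 genes, H2bc4, H3f3a and H3f3b, and none of the replication-dependent H1 and H3 genes. The median gap between the samples numbered 1 and the rest was -0.39 for H2A, -0.29 for H4, -0.087 for H2B, 0.047 for H1 and 0.082 for H3, beside 0.091 over all genes. H2bc4 had the largest such gap of the replication-dependent genes, at -1.03.

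The gap between the samples numbered 1 and the rest ran with signal level. Among genes whose mean over the 6 arrays was 9 or more, both samples numbered 1 were the lowest for 10 of 12 replication-dependent genes, and for 868 of 1809 of all genes (48.0%). All of these 12 but H1f2 were H2A or H4 genes, though other H2A and H4 genes had means under 9. Of those, both samples numbered 1 were also the lowest for H2ac4, H2ac10, H2ac21, H4c3, H4c8 and H4c12. They were not for H2ac6, H2ac8, H2ac15, H4c2, H4c6 and H4c9. Of the replication-dependent H1, H2B and H3 genes with means under 9, they were for H2bc4 only. The parts of histone type and signal level were not tested. Among genes with a mean under 7, both samples numbered 1 were the lowest for 1 of 12 replication-dependent genes and for 5.55% of all genes. The arrays numbered 1 were those with the narrower spread, and its part in the histone gaps was not tested.

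**Figure D5:**
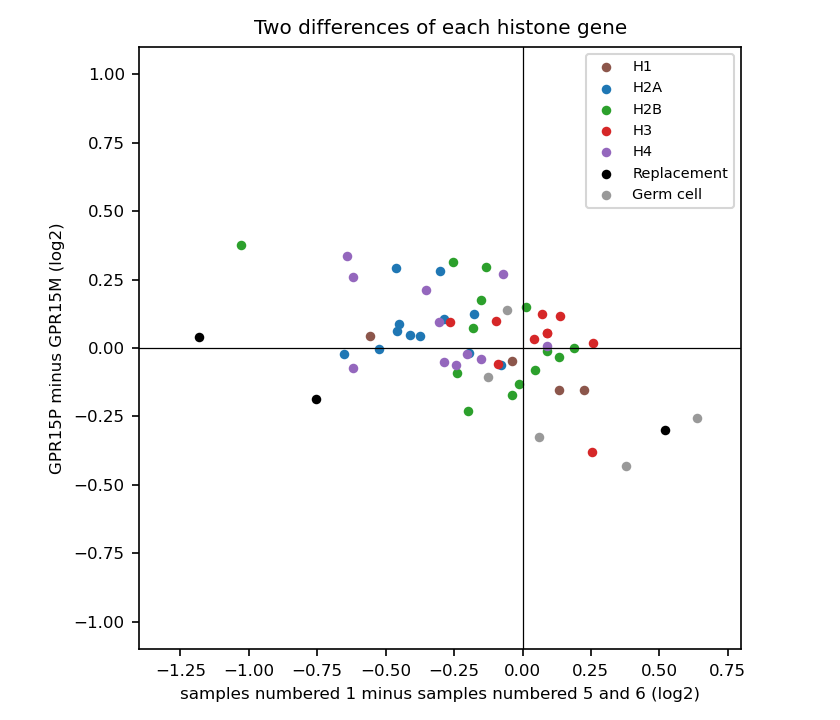
For each of the 59 histone genes, the gap between samples numbered 1 and those numbered 5 and 6 (log2, horizontal) against the difference between the fractions (GPR15P minus GPR15M, log2, vertical), coloured by type. Gaps run from -1.18 to 0.64 and fraction differences from -0.43 to 0.38, with H2A and H4 mostly left of 0.

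The replacement variants were described apart. The 3 that fitted by symbol had a median difference of -0.19, beside -0.063 over all genes. It turned to 0.036 with array weights and to 0.14 without the sample labelled GPR15P with the number 1, and it was -0.30 without the sample labelled GPR15M with the number 1 and -0.078 without that with the number 6. H3f3a and H3f3b encode the H3.3 protein, which marks transcribed and dynamic chromatin. H3f3a stood at 9.08, 10.13 and 10.04 in samples labelled GPR15M and at 8.88, 10.20 and 10.28 in those labelled GPR15P. Its 2 samples numbered 1 were the lowest, with a gap of -1.18 to the other 4 (2.27-fold higher in those), while the fractions overlapped and differed by 0.040 ± 0.43 (SE). That sign turned after quantile normalization and after the intensity trend was removed. H3f3b stood at 11.16, 11.65 and 11.73 in samples labelled GPR15M and at 10.68, 11.61 and 11.69 in those labelled GPR15P. The samples numbered 1 were again the lowest, the fractions overlapped, and the pair differences were -0.47, -0.045 and -0.043 around a difference of -0.19 ± 0.30 (SE). Without the sample labelled GPR15P with the number 1 it was 0.14. H1f10, a linker variant, ran the other way by number, with 7.30 and 7.20 in the samples numbered 1 and 6.51 to 6.99 in the other 4. Its GPR15P sample was the lower of every pair, and its difference was -0.30 ± 0.24 (SE), with an adjusted p of 0.809 in limma.

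Of the 14 genes that fitted only by an older symbol, 7 were replacement variants, and with them the median over 10 variants was -0.089. H2az1 and H2az2 encode H2A.Z, a variant found around promoters. H2az1 stood at 12.34, 12.64 and 12.67 in samples labelled GPR15M and at 11.71, 12.41 and 12.38 in those labelled GPR15P. The GPR15P sample was the lower of every pair, the fractions overlapped, and the difference was -0.39 ± 0.23 (SE), with an adjusted p of 0.773 in limma and of 0.402 with the block. H2az2 had pair differences of -0.40, 0.27 and 0.73 around 0.20. Macroh2a3, named in the annotation among the macroH2A genes, differed by -0.45 ± 0.26 (SE), lower in every pair. When the arrays were weighted, 3 of the 14 passed the adjusted threshold in limma (21.4%, where 11.2% of all genes did): Macroh2a2 (-0.64), H2az2 (0.60) and Macroh2a3 (-0.53). These genes were named after their values were seen.

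The germ cell variants are known from testis and oocyte. Their median difference was -0.25 over 5 genes. It was -0.12 with the intensity trend removed, -0.092 over the 2 genes left by the filter on dim genes, and -0.16 without the sample labelled GPR15P with the number 5. Without calls of signal over background on these arrays, whether they were expressed was not tested. H1f7, the linker histone of spermatids, stood at 7.78, 7.64 and 7.52 in samples labelled GPR15M and at 7.28, 7.38 and 7.31 in those labelled GPR15P. Its fractions did not overlap, and the difference was -0.32 ± 0.16 (SE), with an adjusted p of 0.773 in limma. H1f8, the oocyte linker histone, stood at 5.84, 5.95 and 5.90 in samples labelled GPR15M and at 6.03, 4.99 and 5.37 in those labelled GPR15P. Its pair numbered 1 was above 0 and the others below, which gave -0.43 ± 0.26 (SE). H2bc1 and H2ac1, the testis forms of H2B and H2A, differed by -0.25 ± 0.29 (SE) and 0.14 ± 0.15 (SE), and H1f6, the testis H1, by -0.11 ± 0.17 (SE), a sign that turned after quantile normalization and with the intensity trend removed.

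In lists of genes that make and handle histones, 0 genes were called in limma without array weights. With array weights, 0 of 19 histone mRNA production genes and 5 of 30 chaperone genes (16.7%) were called, where 11.2% of all genes were. Of 25 listed genes for histone mRNA production, 19 were measured. Of these, 15 lay above 0, where 7959 of all 19494 genes did, and the median was 0.14. Within the numbers 1, 5 and 6 the median was -0.035, 0.31 and 0.20, and 2 of the 19 lay above 0 in all 3 pairs. At an unadjusted p under 0.05 in limma, 0 passed, where 6.23% of all genes did. Cpsf2 and Cpsf3, of the complex that cuts histone pre-mRNA, differed by 0.27 ± 0.17 (SE) and 0.28 ± 0.18 (SE), and Casp8ap2, of the histone locus body, by -0.30 ± 0.21 (SE). Of 30 measured chaperone genes, 18 lay above 0, and 2 (6.67%) had an unadjusted p under 0.05, near the 6.23% of all genes. Their median of 0.058 was 0.0018 after quantile normalization and 0.022 with the intensity trend removed. Within the numbers 1, 5 and 6 the chaperone median was -0.072, 0.12 and 0.11. Set, a chaperone and phosphatase inhibitor, differed by 0.57 ± 0.21 (SE), and Ubn1, of the HIRA complex that deposits H3.3, by 0.51 ± 0.20 (SE), both without overlap and with an adjusted p of 0.773 in limma. Daxx, which deposits H3.3 with ATRX, differed by 0.55 ± 0.24 (SE), with an adjusted p of 0.773 in limma. Its fractions overlapped, and its pair differences were 1.20, -0.0014 and 0.44.

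In the cell cycle lists, 0 genes were called in limma without array weights. With them, 8 of 36 S phase genes (22.2%) and 4 of 27 mitosis genes (14.8%) were called, where 11.2% of all genes were. Of 36 measured S phase genes, 18 lay above 0 and the median was -0.0054, with 2 (5.56%) at an unadjusted p under 0.05, near the 6.23% of all genes. Prim2, of the primase, differed by 1.37 ± 0.30 (SE) and Gins1, of the replicative helicase, by -0.76 ± 0.18 (SE), each without overlap and with an adjusted p of 0.773 in limma. Pole2, a polymerase subunit, differed by 0.65 ± 0.33 (SE), and its fractions overlapped. Means in samples labelled GPR15M and GPR15P were 4.95 and 4.19 for Gins1 and 4.44 and 5.09 for Pole2. These levels were below the median of every array. Of 27 measured mitosis genes, 11 lay above 0 with a median of -0.10, and 3 (11.1%) had an unadjusted p under 0.05, where 6.23% of all genes did. These were Ccnb2 (-1.20 ± 0.29 SE), Birc5 (-0.54 ± 0.15 SE) and Aurka (-0.51 ± 0.15 SE), all lower in every sample labelled GPR15P. The mitosis median turned to 0.028 after the intensity trend was removed, and the S phase median to 0.025.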

How the data were processed

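RNA of 6 sorted Treg samples was measured on 1-colour Affymetrix arrays. The authors deposited log2 values per probe set, made with RMA per the submitters' processing notes; the array's build and detection calls are not given in the sources used here. Of 22142 rows, 19527 had 1 gene symbol, 0 several and 2615 none. For 33 genes with more than 1 row, 0 of them histone genes, the brightest row was kept, which left 19494 genes.

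Groups came from the titles. The test of each difference was limma's (version 3.58.1, R 4.3.3), by lmFit and eBayes without a block, adjusted by Benjamini-Hochberg over all genes at a threshold of 0.05, and checked on simulated data. An exact permutation test of 3 against 3 cannot go below 0.1. Deviations of samples of equal number correlated at 0.567, 0.381 and 0.319, each over the 0.1 set as the mark of a pairing, and equal numbers were treated as pairs. GPR15M number 6 with GPR15P number 5 also gave 0.315, and GPR15M number 5 with GPR15P number 6 gave 0.213. Both are over the same mark, which therefore cannot tell which of the samples numbered 5 and 6 belong together. The pairing of those samples rests on the titles.

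The annotation holds current symbols, so each class was set through the older symbol (Hist1h1c for H1f2). By symbol alone H1f1, H1f2, H1f3 and H1f5 would count as variants. Named were all variants and, per histone type, the 3 with the highest mean and the 2 with the largest difference in each direction, plus genes stated to be chosen after their values were seen, 3 genes per companion list by p, Gpr15 and Treg markers. Members and lists were chosen with earlier results of these data known. Alternatives were the block, a filter on the 40% dimmest genes, centring, quantile normalization, removal of the trend with intensity, array weights, samples left out and the mean of a gene's rows.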

Additional observations from a re-analysis of the deposited data

How the results depend on the processing

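With 3 arrays a fraction, limits come from the number of arrays and from the samples numbered 1. Histone genes at an unadjusted p under 0.05 in limma numbered 0, and 1 with the replicate block, 1 with the intensity trend removed and the block, 15 with array weights, 8 without both samples numbered 1, and 0 to 9 when 1 sample was left out, with 9 reached without the sample labelled GPR15P with the number 1. Over all genes these counts were 1214, and 2411, 2092, 6534, 4101 and 668 to 4351, with 713 after the dimmest genes were left out. After adjustment, array weights called 2 histone genes and 2174 genes in all; estimation of the weights stopped at its tolerance, and every other setting called 0 histone genes. The block for the pairing changed no adjusted call. The replication-dependent median of 0.043 was 0.11 after centring, -0.036 after quantile normalization, -0.019 with the trend removed (with or without the block), 0.10 with weights, 0.082 without both samples numbered 1, and -0.0081 to 0.12 with 1 sample left out. The replacement variant median of -0.19 was 0.036 with weights, -0.044 without both samples numbered 1, -0.089 with variants of older symbol added, and -0.30 to 0.14 with 1 sample left out. The germ cell variant median of -0.25 ran from -0.33 to -0.16 with 1 sample left out. The added settings were the trend with the block, the classing by current symbol, and the variants of older symbol.

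Of 48 named histone genes, 26 kept their sign under each of the settings run on them and 32 under the 3 scalings. Signs turned after centring for H1f1 (0.021), H2ac20 (0.068), H2ac4 (0.049), H2ac6 (0.0092), H3c10 (0.012), H2bc22 (0.069) and H4c2 (0.0089). After quantile normalization they turned for H1f2 (-0.11), H1f6 (0.0087), H2ac22 (-0.00023), H2ac6 (0.028), H3c13 (-0.11), H3c14 and H3c15 (-0.058), H3f3a (-0.067), H2ac12 (-0.068), H2bc22 (0.024) and H4c11 (-0.10). With the trend removed, with or without the block, they turned for H1f2 (-0.043), H1f6 (0.029), H2ac6 (0.067), H3c13 (-0.065), H3c14 and H3c15 (-0.019), H3f3a (-0.043), H2ac12 (-0.024), H2bc22 (0.029) and H4c11 (-0.078). With array weights they turned for H2ac20 (0.21), H2ac4 (0.20), H3c1 (-0.00029), H3f3b (0.036), H4c11 (-0.084) and H4c4 (0.22). Without both samples numbered 1 they turned for H2ac20 (0.11), H2ac4 (0.21), H3c13 (-0.042), H4c11 (-0.16), H4c2 (0.037) and H4c4 (0.24). With 1 sample left out the ranges that spanned 0 were -0.22 to 0.40 for H1f2, -0.0013 to 0.22 for H2ac11, -0.15 to 0.23 for H2ac20, -0.070 to 0.31 for H2ac22, -0.21 to 0.31 for H2ac4, -0.12 to 0.25 for H2ac12, -0.021 to 0.20 for H2bc12, -0.16 to 0.12 for H2bc22, -0.019 to 0.53 for H2az2, -0.17 to 0.032 for H3c10, -0.097 to 0.13 for H3c13, -0.30 to 0.49 for H3f3a, -0.37 to 0.14 for H3f3b, -0.10 to 0.096 for H4c11, -0.23 to 0.070 for H4c2 and -0.27 to 0.29 for H4c4. The cause was not tested.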
